A study of Mus musculus with 3 samples.

Results

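The ephrins, semaphorins, netrins and Slits and the receptors that read them, the Eph kinases, plexins, neuropilins and Robo proteins, were taken by their row symbols. The rule matched 67 of 32285 rows in the table of replicates 2 and 3 and 59 of 16157 rows in the table of replicate 1. The 67 rows comprised 14 Eph receptors, 8 ephrins, 20 semaphorins, 9 plexins, 2 neuropilins, 4 Robo genes, 3 Slit genes, 4 netrins and 3 antisense transcripts of Plxna4. Their levels are described in hormone-defined delta, alpha and beta cells and in the endothelial, macrophage and stromal cells of the same islets.

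Islets of Langerhans came from 6 mice carrying Ngn3-CreERT:R26-CAG-TdTomato and were taken 10 days after tamoxifen. Ngn3 is the transcription factor Neurog3, whose driver makes a tamoxifen-switched Cre that removes a stop sequence before the red reporter TdTomato. All 3 samples belong to this 1 group, every one with both alleles and tamoxifen, so nothing here compares treated with untreated mice, and replicates 2 and 3 each pool 2 mice. The labels name no sort or age. Islets were freed with collagenase, cleaned on a histopaque gradient and split into single cells with TypLE Express, and 3′ transcript ends were counted with unique molecular identifiers (UMIs) on the 10x Genomics system, with about 10000 cells loaded per channel.

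Guidance molecules were named for steering axons and also act in vessels, immune cells and epithelia. Ephrins sit on the cell surface, A-type by a lipid anchor and B-type by a transmembrane segment, and signal to Eph receptor kinases of touching cells. Semaphorins act through plexins, and most secreted class 3 semaphorins also need a neuropilin, whereas Sema3e binds Plxnd1 directly. Slits bind Robo receptors, and Robo1 and Robo2 are known in mice for keeping endocrine cell types in their places within the islet.

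Library 1 (replicate 1) held 1146 cells with 27474046 UMIs, and the joint table (replicates 2 and 3) held 13042 distinct cells with 196833349 UMIs in 3 barcode blocks. No label ties a block to a sample, so the joint table was treated as 1 library and tests have n = 2 libraries. Between 0 and 6 cell barcodes were shared by any pair of library 1 and the blocks. Library 1 and the joint table gave 53 and 491 delta cells, 63 and 504 alpha cells, 439 and 6381 beta cells, 26 and 709 endothelial-like cells, 43 and 350 macrophage-like cells and 44 and 280 stromal-like cells, the last being fibroblast-like and pericyte-like clusters together. The non-endocrine clusters had 5 to 10 of their fixed markers in at least 25% of cells, and "-like" is left off below. Hormone RNA outside its own cells differed between libraries: insulin UMIs per non-hormone UMI were 0.219% to 0.704% of the beta value in the other 5 classes of library 1 and 3.71% to 6.78% in those of the joint table. Levels are given as CPM, the UMIs of a gene in 1000000 non-hormone UMIs, summed over the cells of a class, since the hormones took 69.6% of all UMIs of beta cells in the joint table and 32.6% of those of delta cells. Each UMI marks 1 captured transcript end, so levels were not divided by gene length.

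The upstream sequences of 4 genes are shown because their levels set apart classes among the 6 tested below: Sema3e in delta and alpha cells, Robo2 in endocrine cells, and Plxnd1 and Efnb2 in endothelial cells. Schwann-like cells, which were not tested, also held Robo2 and Sema3e, as given under other observations. Each line gives the 250 bases before the annotated gene start in RefSeq (build GRCm38.p6), 5′ to 3′ on the strand of the gene. They lie at chr5:14025026-14025275 (plus strand) for Sema3e, chr16:74411826-74412075 (minus strand) for Robo2, chr6:115995006-115995255 (minus strand) for Plxnd1 and chr8:8661243-8661492 (minus strand) for Efnb2. Capitals mark matches, on either strand, to 4 short motifs: CAGGAA and CCGGAA, cores read by ETS factors, CAGNTG, an E-box core, and TAAACA, a forkhead core.
Sema3e: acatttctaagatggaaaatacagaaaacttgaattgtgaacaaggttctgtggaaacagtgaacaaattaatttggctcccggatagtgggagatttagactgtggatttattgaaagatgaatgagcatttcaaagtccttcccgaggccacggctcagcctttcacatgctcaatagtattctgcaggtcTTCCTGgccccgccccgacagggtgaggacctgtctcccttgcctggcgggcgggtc
Robo2: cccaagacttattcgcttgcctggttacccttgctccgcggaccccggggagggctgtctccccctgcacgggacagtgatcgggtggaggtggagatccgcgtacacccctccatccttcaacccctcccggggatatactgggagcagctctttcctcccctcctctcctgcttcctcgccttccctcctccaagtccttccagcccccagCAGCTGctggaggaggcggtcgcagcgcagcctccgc
Plxnd1: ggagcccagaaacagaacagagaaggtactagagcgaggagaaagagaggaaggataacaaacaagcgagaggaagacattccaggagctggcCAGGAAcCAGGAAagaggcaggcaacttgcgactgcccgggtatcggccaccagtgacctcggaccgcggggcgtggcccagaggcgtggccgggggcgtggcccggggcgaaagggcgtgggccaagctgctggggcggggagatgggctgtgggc
Efnb2: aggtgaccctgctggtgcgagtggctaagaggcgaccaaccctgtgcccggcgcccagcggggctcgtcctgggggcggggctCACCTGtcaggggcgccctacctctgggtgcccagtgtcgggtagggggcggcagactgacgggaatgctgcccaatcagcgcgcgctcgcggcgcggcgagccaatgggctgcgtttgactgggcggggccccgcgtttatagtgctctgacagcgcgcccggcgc
CAGGAA matched 2 times before Plxnd1 and 1 time before Sema3e, and CAGNTG matched 1 time each before Efnb2 and Robo2. These matches are common: 25.7% of 32851 RefSeq promoters of this length held CAGGAA, 44.8% held CAGNTG, and 12.0% held each of CCGGAA and TAAACA. Among 72 promoter entries of the 56 guidance genes found in that table, 15 held CAGGAA, 29 held CAGNTG, 6 held CCGGAA and 2 held TAAACA. The matches are descriptions of letters, not of binding.

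Of the 67 rows, 52 passed the filter on low values (5 CPM in at least 2 of the 12 class and library columns) and were tested, and 15 were not. The 15 comprise 8 rows that library 1 does not list (Efna3, Epha6, Epha10, Ntn3, Ntn5, Slit1, Plxna4os2 and Plxna4os3) and 7 below the filter (Epha1, Epha5, Epha8, Ntn1, Plxnb3, Sema5b and Sema6c). Epha6, Slit1, Plxna4os2 and Plxna4os3 had 0 UMIs in the 6 classes of the joint table, whereas Ntn3 had 241. For 44 of the 52 tested genes the class with the highest level was the same in both libraries: 20 in endothelial cells, 12 in stromal cells, 5 in macrophages, 3 in beta cells, 2 in alpha cells and 2 in delta cells. The map of levels shows these blocks. The same count was not made over all genes tested, so nothing particular to guidance genes can be read from it. A gene that reaches 5 CPM in 1 class only passes the filter through that class in both libraries. For such a gene the top class, and the direction of its difference there, were fixed by selection.

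**Figure D1:**
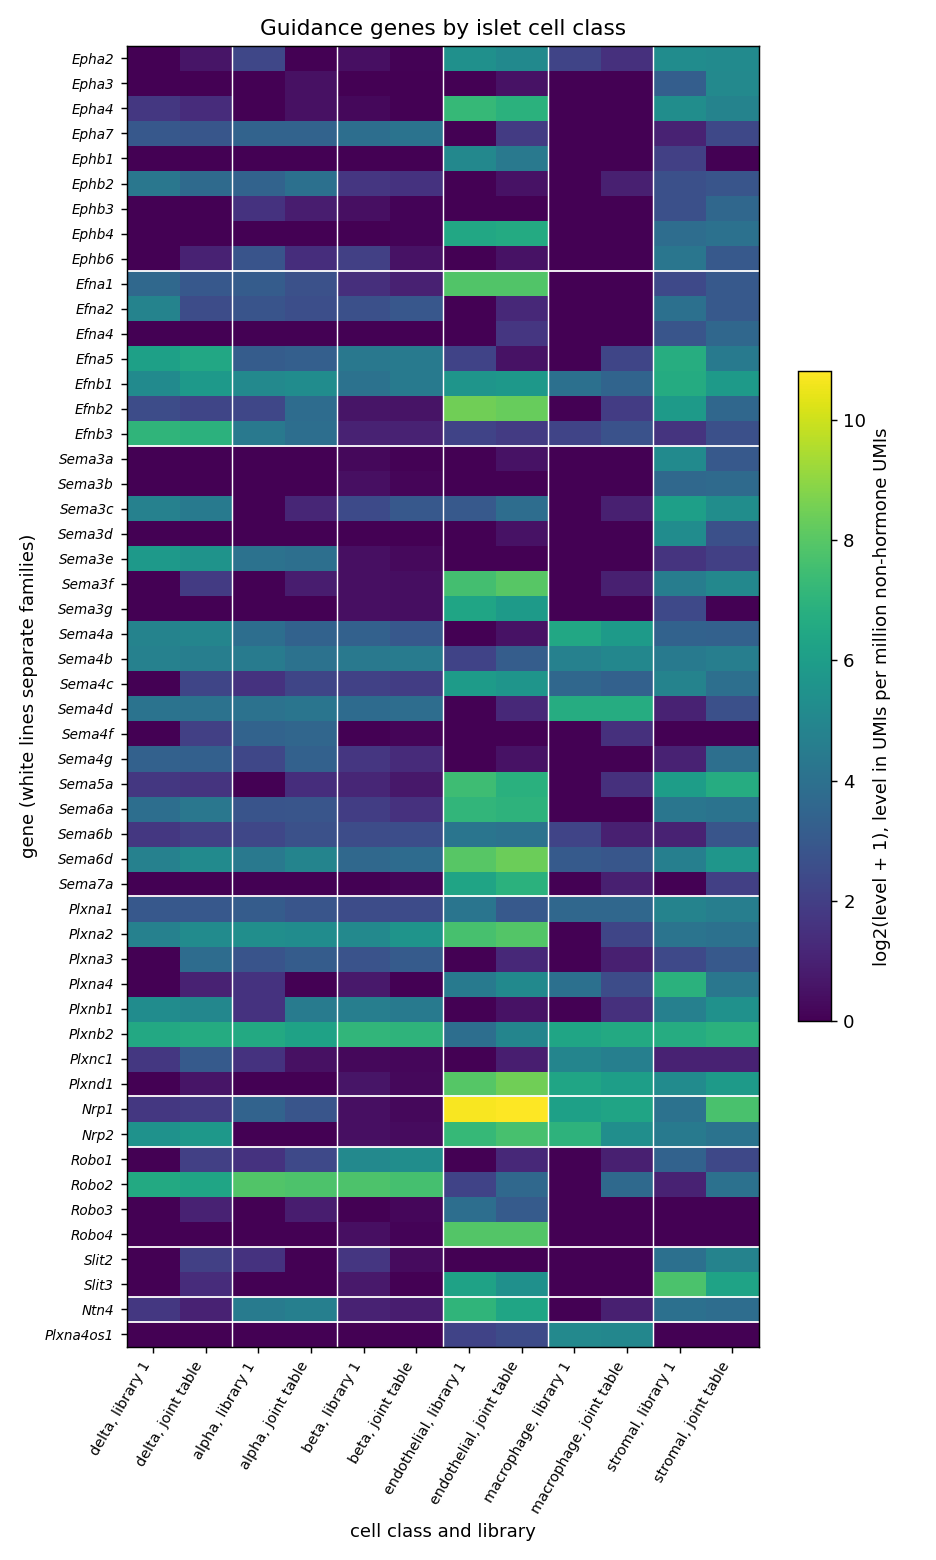
Levels of the 52 tested guidance genes (rows, grouped by family) in delta, alpha, beta, endothelial, macrophage and stromal cells of library 1 and the joint table (columns), as log2(level + 1) with the level in CPM of non-hormone UMIs. Nrp1 in endothelial cells is the brightest cell, and Robo2 is bright in the 3 endocrine classes and darker in the others.

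The leading gene of each family, by the mean of both libraries, differed between classes. Among ephrins, Efnb3 led in delta cells, Efnb1 in alpha cells and Efna5 in beta cells, against Efnb2 in endothelial cells and Efnb1 in macrophages and stromal cells. Eph receptors were low in endocrine cells, where the leading gene was Ephb2 in delta cells (18.6 CPM in library 1 and 12.2 in the joint table), Ephb2 in alpha cells (9.83 and 15.02) and Epha7 in beta cells (13.8 and 16.3). In endothelial cells the Eph receptor Epha4 reached 151 and 118 CPM, in stromal cells Epha2 reached 36.8 and 35.0, and in macrophages the leading Eph receptor, Epha2, stood at 3.70 and 1.86. Semaphorins were led by Sema3e in delta cells, Sema6d in alpha cells (19.7 and 28.0 CPM) and Sema4b in beta cells (19.9 and 21.7), against Sema6d in endothelial cells (254 and 332), Sema4d in macrophages and Sema5a in stromal cells (63.0 and 102.0). Plxnb2, a receptor of class 4 semaphorins, was the leading plexin outside endothelial cells, with 90.6 and 99.98 CPM in delta, 92.4 and 74.3 in alpha, 139 and 130.4 in beta, 81.3 and 92.9 in macrophage and 102 and 119 in stromal cells, and Plxnd1 led in endothelial cells. Robo2 led in endocrine cells and Robo4 in endothelial cells, Slit3 led in endothelial and stromal cells, and Ntn4 led among netrins listed in both libraries. Ntn3, which library 1 does not list, exceeded Ntn4 in beta cells of the joint table (5.17 against 0.813 CPM). The leading neuropilin was Nrp2 in delta cells and macrophages and Nrp1 in alpha, endothelial and stromal cells, while neither passed 0.345 CPM in beta cells.

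In the 3 endocrine classes, averaged, 9 of the 52 guidance genes were higher than in the average of the 3 non-endocrine classes and 34 were lower (limma on log2 of the level plus 5, Benjamini-Hochberg adjusted p under 0.05 over 13069 genes). Of all genes tested, 30.2% were called higher, 31.8% lower and 62% in either direction. Robo2 stood out among the genes higher in endocrine cells. It had 92.9, 234 and 218 CPM in delta, alpha and beta cells of library 1, against 3.52, 0 and 1.05 in endothelial, macrophage and stromal cells, and 80.8, 222 and 196 in delta, alpha and beta cells of the joint table, against 11.7, 12.1 and 15.5. The endocrine classes were far above the others in both libraries, with a log2 difference of 3.70 (SE 0.27, adjusted p = 1.22e-06). Its endothelial, macrophage and stromal levels were 5.98%, 6.17% and 7.89% of the beta level in the joint table, where insulin stood at 4.96%, 5.59% and 6.78%, and 1.62%, 0% and 0.482% in library 1, where insulin stood at 0.389%, 0.704% and 0.219%; the part of free RNA in these low levels was not tested.

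The other genes higher in endocrine cells were Sema3e (log2 difference 1.41), Efnb3 (1.32), the Eph receptor Epha7 (1.06), the semaphorin receptor Plxnb1 (0.96), Efna5 (0.93), Ephb2 (0.76), Robo1 (0.60) and Plxnb2 (0.48). These averages do not hold for each class. Efna5 was highest in stromal cells of library 1 (105 CPM) and delta cells of the joint table (88.8). Plxnb1 was highest in delta cells of library 1 (37.1) and stromal cells of the joint table (43.3). Plxnb2 was higher in stromal (102 and 119) than in alpha cells (92.4 and 74.3). The 12 genes with the largest differences on the lower side were Nrp1 (-4.95), Plxnd1 (-4.60), Sema5a (-2.99), Slit3 (-2.93), Nrp2 (-2.86), Sema3f (-2.85), Epha4 (-2.63), Plxna4 (-2.62), Efnb2 (-2.49), Ephb4 (-2.33), Epha2 (-2.32) and Sema4c (-2.16). The median difference was -0.83 over the 52 genes and 0.01 over all genes tested. With all UMIs as denominator the split was 12 higher and 23 lower, beside 3768 higher and 3741 lower of 12627 genes. Plxnb2 then lost its call. With edgeR 11 or 12 genes were higher and 14 lower, depending on the size factors, with an adjusted p of 1 for Slit3, Epha4 and Ephb4 at log2 differences of -5.01, -3.81 and -6.57 under TMM factors, and without doublet removal Efna5 and Robo1 lost their calls.

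Delta cells, which make somatostatin, carried a surface ephrin, a secreted semaphorin and a neuropilin that beta cells nearly lacked. Efnb3, a transmembrane ligand of EphB receptors (chr11:69554092-69560205, minus strand, mm10, GENCODE vM21), had 132 CPM (95% Poisson interval 100.2 to 171.5, 57 UMIs) in delta cells of library 1, against 1.04 in beta cells, and 123 (107.5 to 139.8, 231 UMIs) in delta cells of the joint table, against 1.03 in beta cells. Delta cells of the 3 barcode blocks had 111, 168 and 103 CPM, against 1.24, 0.607 and 1.05 in beta cells. No delta value overlapped a beta value, and the log2 difference was 4.43 (SE 0.29, adjusted p = 1.91e-05). An Efnb3 UMI was seen in 34.8% of delta cells (30.6% to 39.2%, exact binomial) and in 0.674% of beta cells of the joint table at median depths of 5461 and 19918 UMIs, and in 60.4% and 1.37% in library 1. In endothelial cells of the joint table the share was 0.846% at a median of 2933 UMIs. Thinned to 2000 UMIs a cell, the shares were 14.5% of 462 delta cells and 0.157% of 6381 beta cells in the joint table.

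Sema3e, the secreted ligand of Plxnd1 (chr5:14025276-14256689, plus strand), had 55.7 CPM in delta cells of library 1 and 46.3 in those of the joint table, against 0.345 and 0.215 in beta cells. The 3 blocks gave 48.8, 63.3 and 22.8 in delta cells, all above each alpha and beta value of the blocks. Its log2 difference was 3.37 (SE 0.24, adjusted p = 2.94e-05). Nrp2, a co-receptor of class 3 semaphorins and of Vegfc (chr1:62703285-62818695, plus strand), had 44.1 and 53.2 CPM in delta cells, against 0.345 and 0.239 in beta cells, with a log2 difference of 3.31 (SE 0.44, adjusted p = 0.000934). Robo1, a Slit receptor (chr16:72308306-73046095, plus strand), went the other way, with 0 UMIs in 53 delta cells of library 1 (a count of 3 would make 6.97 CPM) and 3.19 CPM in the joint table, against 32.6 and 38.4 in beta cells (log2 difference -2.69, SE 0.34, adjusted p = 0.000702). Among the tested classes, Efnb3 and Sema3e reached 5 CPM in both libraries only in delta and alpha cells, and Robo1 only in beta cells. They passed the filter on low values through these classes, so the direction of their differences from the other classes was favoured by selection. The p-values of those differences are no independent support.

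In all, 9 of the 52 genes were higher in delta than in beta cells and 1 was lower, while 5.49% of all genes tested were called higher, 4.55% lower and 10% either way. The remaining 6 higher genes were Sema6a (log2 difference 1.49) and Sema6d (0.99), transmembrane semaphorins, Ephb2 (1.47), Sema3c (1.38), a secreted semaphorin, Sema4a (1.33) and the lipid-anchored Efna1 (1.12). The median over the 52 genes was 0.08 and over all genes -0.02. Efna5, with 69.7 and 88.8 CPM in delta cells against 19.0 and 20.9 in beta cells, had a difference of 1.72 that missed the threshold (SE 0.58, adjusted p = 0.102), and Robo2 one of -1.24 (SE 0.47, adjusted p = 0.147). With all UMIs as denominator the split was 3 higher and 9 lower, beside 577 higher and 724 lower of 12627 genes. Sema3c, Sema6d, Sema4a, Efna1, Ephb2 and Sema6a then lost their calls. Under other settings calls were also lost for Sema3c (7 settings, adjusted p of 0.0507 to 0.206), Sema6d (6 settings, 0.0512 to 0.106), Sema4a (2 settings, 0.0615 and 0.063) and Efna1 (2 settings, 0.0509 and 0.192). Efnb3, Sema3e, Nrp2 and Robo1 kept theirs under every alternative that tested them.

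**Figure D2:**
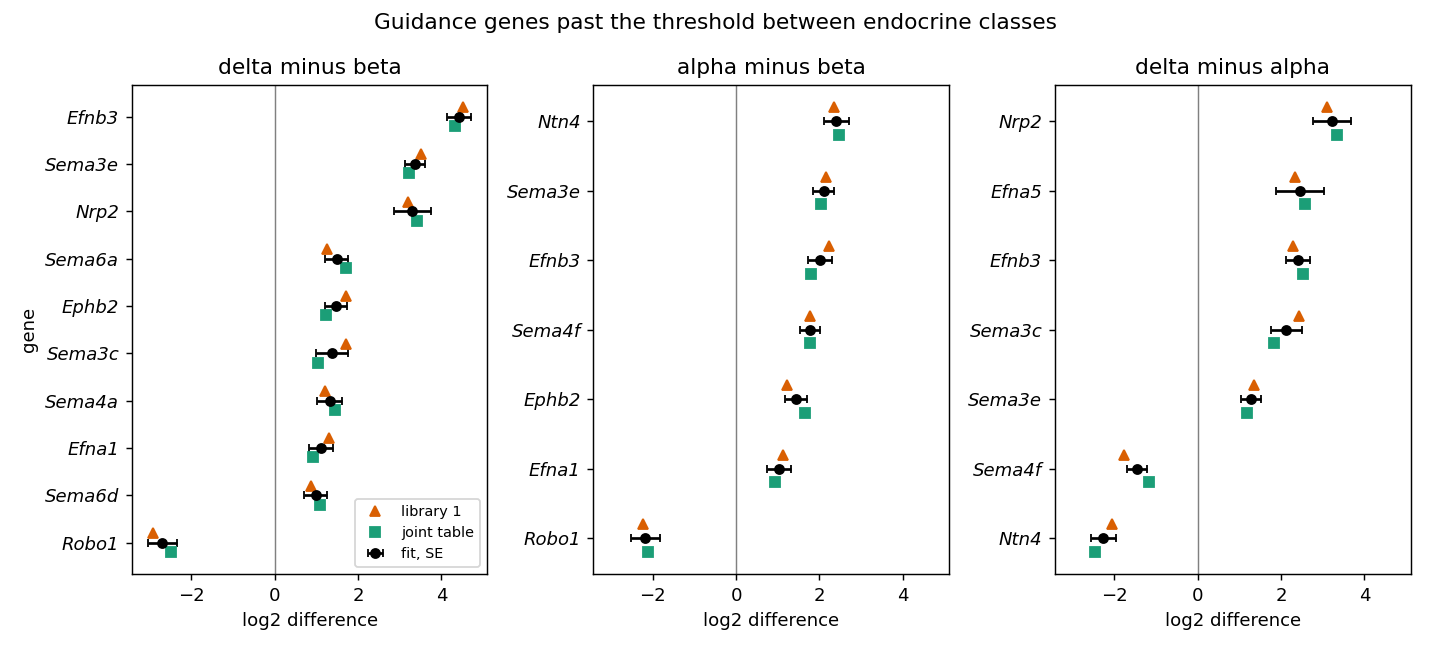
Log2 differences of the guidance genes past the threshold in delta minus beta, alpha minus beta and delta minus alpha cells. Black circles are the fit with its SE, triangles the difference within library 1 and squares within the joint table. The delta minus beta panel runs from Efnb3 at 4.43 to Robo1 at -2.69; genes were named only where both libraries had the same direction.

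Alpha cells, which make glucagon, were set apart from beta cells by Ntn4, a secreted netrin of basement membranes. Ntn4 (chr10:93640681-93747207, plus strand) had 21.6 CPM in alpha cells of library 1 and 24.2 in those of the joint table, against 1.04 and 0.813 in beta cells (log2 difference 2.40, SE 0.30, adjusted p = 0.000628). Endothelial cells had more Ntn4 than alpha cells, at 134 and 81.5 CPM, and stromal cells had 14.7 and 13.4. The blocks gave 23.1, 26.7 and 24.4 in alpha cells and 0.754, 0.910 and 0.824 in beta cells, with no overlap. Sema4f, a transmembrane semaphorin (chr6:82911885-82939769, minus strand), had 9.83 and 10.85 CPM in alpha cells, from 5 and 26 UMIs, against 0 UMIs in beta cells of library 1 and 0.0957 CPM in those of the joint table (log2 difference 1.77, SE 0.24, adjusted p = 0.000863). Sema4f passed the filter on low values only through alpha cells. Its direction against beta cells, and against delta cells below, was therefore fixed by selection, and the p-values are no independent support.

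Sema3e and Efnb3 were at intermediate levels in alpha cells. Sema3e had 15.7 and 14.6 CPM in alpha cells against 0.345 and 0.215 in beta cells (log2 difference 2.10, SE 0.24), and Efnb3 had 19.7 and 14.2 against 1.04 and 1.03 (2.02, SE 0.29, adjusted p = 0.00124). Robo1 was again lower, at 1.97 and 4.17 CPM in alpha cells against 32.6 and 38.4 in beta cells (log2 difference -2.17, SE 0.34). With Ephb2 (1.44) and Efna1 (1.03), 6 of the 52 genes were higher in alpha than in beta cells and 1 was lower, whereas 5.03% of all genes were called higher, 5.07% lower and 10.1% either way. The medians were 0.17 over the 52 genes and 0.09 over all genes. Beta cells are the common partner of the alpha and delta comparisons. With all UMIs as denominator 2 of the guidance genes were higher and 1 lower, beside 450 higher and 377 lower of 12627 genes. The adjusted p was then 0.0716 for Efnb3, 0.19 for Ephb2, 0.117 for Sema4f and 0.728 for Efna1. Efna1 also missed the threshold under 6 other settings (0.0584 to 0.105).

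Set against alpha cells, delta cells had more Nrp2 (44.1 and 53.2 CPM in delta cells, against 0 UMIs in alpha cells of both libraries, where a count of 3 would make 5.90 and 1.25 CPM), with a fitted log2 difference of 3.22 (SE 0.44, adjusted p = 0.00151). Against classes at 0 UMIs the fitted size depends on the pseudocount. Efna5, a lipid-anchored ephrin of EphA receptors, had 69.7 and 88.8 CPM in delta cells against 7.86 and 8.76 in alpha cells (2.46, SE 0.58, adjusted p = 0.0319). Efnb3 differed by 2.41, Sema3c by 2.13 and Sema3e by 1.27, while Sema4f (-1.46) and Ntn4 (-2.26) were lower in delta cells. These 5 higher and 2 lower calls compare with 3.42% of all genes higher, 2.7% lower and 6.12% either way, and the medians were -0.20 over the 52 genes and -0.07 over all genes. Calls were lost for Efna5 with all UMIs (adjusted p = 0.0726) a pseudocount of 1 (0.132) and equal weight per cell (0.0605), for Sema3e with a pseudocount of 1 (0.114) and edgeR (0.0628 and 0.0501), for Sema3c with equal weight per cell (0.0611), and for Sema4f with edgeR (0.211 and 0.212) and DESeq2 (0.692).

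**Figure D3:**
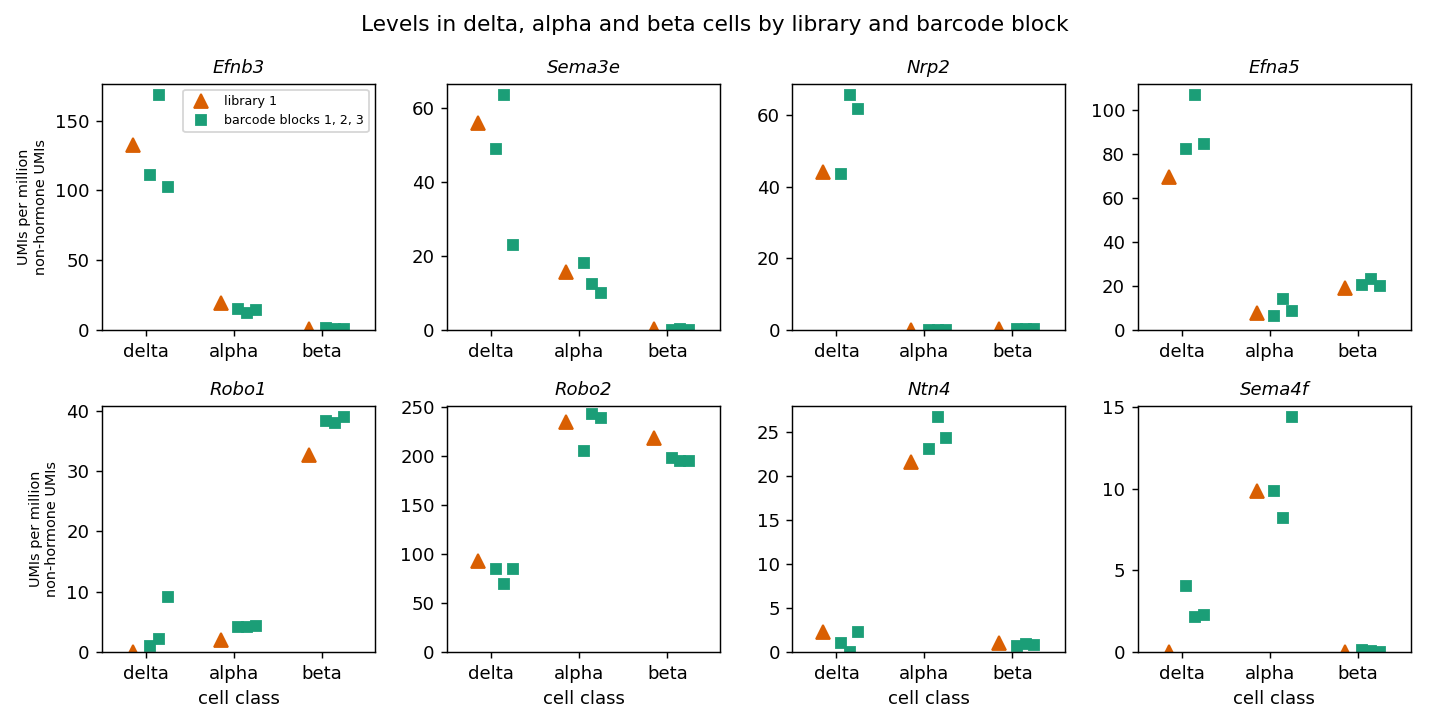
Levels of 8 guidance genes in delta, alpha and beta cells, in CPM of non-hormone UMIs, with a triangle for library 1 and a square for each of the 3 barcode blocks of the joint table. Efnb3, Sema3e, Nrp2 and Efna5 are highest in delta cells, Robo1 in beta cells, Ntn4 and Sema4f in alpha cells, and Robo2 is at 69.8 to 92.9 in delta cells and at 194.8 to 242.3 in alpha and beta cells.

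Of the 2 islet Robo receptors, only Robo1 passed the test between endocrine classes, highest in beta cells. Robo2 had 92.9 and 80.8 CPM in delta cells (95% intervals 66.4 to 126.5 and 68.5 to 94.8), 234 and 222 in alpha cells and 218 and 196 in beta cells. With all UMIs as denominator it had 67.4 and 54.5 CPM in delta, 150.6 and 143 in alpha and 68.6 and 59.5 in beta cells, so delta and beta cells lay close together. Its log2 difference was -1.54 in delta against alpha cells (SE 0.47, adjusted p = 0.0927) and 0.31 in alpha against beta cells (SE 0.47, adjusted p = 0.831), so no neighbours in this order differed beyond the threshold. Their ligands were hardly detected in these cells: Slit2 and Slit3 stood between 0 and 3.19 CPM in every endocrine class of both libraries.

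In islet endothelial cells 26 of the 52 genes were higher than in endocrine cells and 15 were lower, against 22.7% of all genes called higher, 27.1% lower and 49.8% either way. The largest difference was that of Nrp1. Nrp1, a co-receptor of class 3 semaphorins and of vascular endothelial growth factor (chr8:128358604-128503363, plus strand), had 1648 and 1789.9 CPM in endothelial cells, against 2.32 and 2.66 in delta, 9.83 and 6.26 in alpha and 0.345 and 0.167 in beta cells. An Nrp1 UMI was seen in 92.9% of 709 endothelial cells of the joint table (90.8% to 94.7%), against 1.02% of delta, 2.78% of alpha and 0.094% of beta cells, whose median depths were higher. Thinned to 2000 UMIs, the shares were 89.6%, 0.433%, 0.205% and 0.0157%. The log2 difference was 7.87 (SE 0.56, adjusted p = 1.29e-06).

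Plxnd1, the receptor of Sema3e known for its part in vessel patterning (chr6:115954811-115995005, minus strand), had 250.1 and 350.5 CPM in endothelial cells, against 0 UMIs in alpha cells and at most 0.532 CPM in delta and beta cells (log2 difference 5.98, SE 0.25). Robo4, the endothelial Robo (chr9:37401897-37415115, plus strand), had 243 and 241 CPM in endothelial cells, against at most 0.345 in any other class (5.73, SE 0.19, adjusted p = 8.23e-09). Robo4 passed the filter on low values only through endothelial cells, so the direction was fixed by selection and the p-value is no independent support. Efnb2 and Ephb4, the ligand and receptor known for marking arterial and venous endothelium, were both present: Efnb2 had 349 and 313 CPM and Ephb4 had 88.0 and 97.3, with log2 differences of 5.40 (SE 0.47) and 4.4 (SE 0.20). Among ligands, the secreted Sema3f (5.45) and Sema3g (3.96), the transmembrane Sema5a (4.67) and the lipid-anchored Efna1 (4.67) and Sema7a (4.45) were also higher, as were the receptor Epha4 (4.72) and Nrp2 (4.12). Of these, Sema3g and Sema7a passed the filter on low values only through endothelial cells, so their direction was fixed by selection. Sema3f, a ligand of Nrp2, reached 190.2 and 257 CPM.

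On the lower side stood Robo2 (-3.67), Plxnb1 (-2.10), Efna5 (-2.03), Plxnb2 (-1.96), Sema4a (-1.77), Sema3e (-1.74), Sema4d (-1.73), Efnb3 (-1.56), Ephb2 (-1.25), Sema4b (-1.19), Epha7 (-1.17) and Robo1 (-1.06). Sema3e had 0 UMIs in the 26 and 709 endothelial cells, where a count of 3 would make 10.6 and 1.35 CPM. Among the 6 tested classes the ligand was highest in delta cells and next in alpha cells, and its receptor Plxnd1 was highest in endothelial cells. The median difference was 0.58 over the 52 genes and -0.06 over all genes. With all UMIs as denominator 24 of the guidance genes were higher and 21 lower, beside 3095 higher and 3463 lower of 12627 genes.

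**Figure D4:**
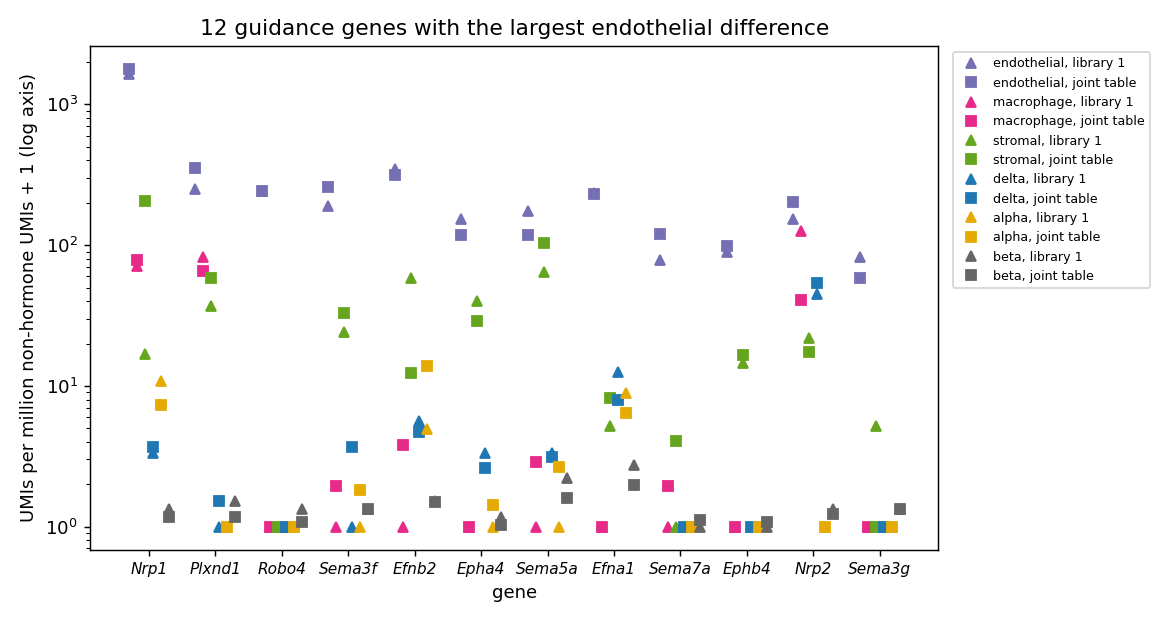
Levels of the 12 guidance genes with the largest endothelial minus endocrine difference, in CPM of non-hormone UMIs plus 1 on a log axis, with a triangle for library 1 and a square for the joint table. Endothelial points lie above those of the other classes for each gene, with Nrp1 at 1648 and 1789.9 and Robo4 at 243 and 241.

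In macrophages, immune semaphorins stood beside the receptors Plxnd1, Nrp1 and Nrp2. Sema4d, a transmembrane semaphorin of immune cells that binds Plxnb1 (chr13:51685529-51793747, minus strand), had 103.5 and 103.1 CPM in macrophages, against 16.3 and 16.0 in delta, 15.7 and 17.5 in alpha and 12.8 and 13.6 in beta cells (log2 difference 2.95, SE 0.24, adjusted p = 2.93e-06). Sema4a, another semaphorin of immune cells, had 88.7 and 58.5 CPM in macrophages (2.53, SE 0.24) and Plxnc1, the receptor of Sema7a, had 29.6 and 24.2 (2.77, SE 0.25). Plxnd1 (4.44), Nrp1 (3.84) and Nrp2 (3.30) were higher in macrophages than in endocrine cells too, at 81.3 and 65.0, 70.2 and 78.05, and 126 and 40.0 CPM.

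Of the 52 genes, 17 were called higher in macrophages and 9 lower, with 25.9% of all genes called higher, 24.3% lower and 50.2% either way, and medians of 0.42 over the 52 genes and 0.02 over all genes. The lower genes were Robo2 (-3.63), Plxna2 (-2.09), Efna5 (-1.66), Plxnb1 (-1.53), Sema3e (-1.32), Epha7 (-1.07), Efnb3 (-0.90), Ephb2 (-0.78) and Sema6a (-0.73). Further genes called higher were Plxna4 (1.84), Sema4c (1.55), Plxna1 (1.07), Epha2 (0.98) and Sema4b (0.87), of which Plxna1, Epha2 and Sema4b lost the call without median centring and Plxna4 and Epha2 with all UMIs. Epha2 had 3.70 and 1.86 CPM in macrophages, where a count of 3 would make 11.1 and 2.79, and also lost the call with edgeR (0.0660 and 0.0666). The last 5 of the higher calls, Sema7a, Efna4, Ephb4, Robo4 and Sema3b, had at most 1 UMI in macrophages of each library, and none was called higher without median centring or with all UMIs as denominator, where the splits were 9 higher and 18 lower, and 10 and 18, beside 2067 higher and 5880 lower of 13069 genes, and 2914 and 3716 of 12627. Of the lower genes, Efnb3 lost the call with a pseudocount of 1 (adjusted p = 0.0833), edgeR (0.271 and 0.234) and DESeq2 (0.311), Ephb2 with DESeq2 (0.0856), Efna5 with edgeR (0.0525 and 0.0558) and Sema6a with classes by cluster name (0.137). Without centring the median of all genes moved to -0.51 in macrophages against endocrine cells, 0.26 in endocrine against non-endocrine cells, -0.18 in endothelial and -0.17 in stromal against endocrine cells, and 0.12 in delta against alpha cells.

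Plxna4os1, a transcript antisense to Plxna4, had 33.3 and 30.7 CPM in macrophages, 3.52 and 4.51 in endothelial cells and 0 UMIs in the other 4 classes (log2 difference 3.42 in macrophages against endocrine cells, SE 0.18, adjusted p = 1.04e-07). Plxna4os1 passed the filter on low values only through macrophages, so the direction was fixed by selection and the p-value is no independent support. It lies at chr6:32511073-32515576 on the plus strand, within Plxna4 (chr6:32144268-32588192, minus strand). Plxna4 itself had 14.8 and 4.65 CPM in macrophages. In fibroblasts Plxna4 had 112 UMIs (library 1) and 18 UMIs (joint table) beside 0 of Plxna4os1, while the C1q-led macrophage cluster of the joint table had 5 of Plxna4 and 31 of Plxna4os1. Whether counting used strand is not given in the sources used here, so the assignment of reads within the overlap is uncertain.

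In the joint table macrophages fell into 2 clusters. In that led by C1q genes (234 cells), Nrp1 was at 103.6 CPM and Plxna4os1 at 41.2, against 18.6 and 6.19 in the other myeloid cluster (116 cells). The other cluster was higher for Plxnd1 (167 against 21.2), Sema4d (161 against 78.3), Nrp2 (102.1 against 13.3) and Sema4a (102.1 against 39.8). With 1 library these are values without a test.

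Stromal cells had 26 of the 52 genes higher and 7 lower than endocrine cells, with 21% of all genes called higher, 22.9% lower and 43.9% either way, and medians of 0.82 over the 52 genes and -0.07 over all genes. Slit3, a secreted ligand of Robo receptors (chr11:35121224-35708507, plus strand), had 213 and 76.2 CPM in stromal cells, against 0 and 1.60 in delta, 0 UMIs in alpha and 0.691 and 0.0239 in beta cells (log2 difference 4.73, SE 0.35, adjusted p = 3.03e-06). Slit2 was higher as well, at 14.7 and 27.8 CPM (2.14, SE 0.26). In endothelial cells Slit3 had 74.0 and 41.9 CPM.

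Sema5a (3.86), Plxnd1 (3.38), Plxna4 (3.36), Nrp1 (3.15), Epha2 (2.95), Epha4 (2.83), Sema3f (2.61), Sema3c (2.34), Epha3 (2.25), Sema3a (2.22) and Slit2 completed the 12 largest differences. Epha3, Sema3a and Slit2 would not have passed the filter on low values without stromal cells, so their direction was fixed by selection. Nrp1 differed between libraries, with 15.8 CPM in stromal cells of library 1 and 206.0 in those of the joint table, and log2 differences of 1.50 and 4.79. Lower in stromal than in endocrine cells were Robo2 (-3.80), Efnb3 (-1.51), Sema4d (-1.27), Sema3e (-1.16), Epha7 (-0.93), Plxna2 (-0.85) and Sema4f (-0.57). Of these, Sema3e and Sema4f lost the call with edgeR and DESeq2, Epha7 with DESeq2 and Plxna2 with a pseudocount of 1.

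Stromal cells comprised fibroblasts (32 cells of library 1, 104 of the joint table) and pericytes (12 and 176), and a gene with 0 UMIs in pericytes has an upper 95% Poisson limit of 60.1 CPM (library 1) or 11.6 CPM (joint table). The secreted semaphorin Sema3c had 73.0 and 56.6 CPM in fibroblasts and Plxna4 had 126 and 27.5, each against 0 UMIs in pericytes of both libraries. Sema3a, at 37.0 and 10.7 CPM in fibroblasts, and Sema3d, at 39.3 and 7.65, also had 0 UMIs in pericytes, but their fibroblast levels lie below those limits, so no difference was detectable at this depth. Epha4 had 41.5 and 39.8 CPM in fibroblasts against 0 and 3.15 in pericytes, and its fibroblast level in library 1 also lies below the limit there. Sema6d was higher in pericytes, at 12.3 and 9.18 CPM in fibroblasts against 196 and 136 in pericytes. Epha2 was at 33.7 and 9.18 against 81.5 and 88.3. In library 1 the Epha2 intervals overlapped, at 22.7 to 48.1 in fibroblasts and 26.4 to 190 in pericytes, from 5 UMIs in the latter. Nrp1 was at 3.37 and 167 in fibroblasts against 196 and 287 in pericytes, so the libraries differed most in fibroblasts. The fibroblasts were not alike in both libraries. Those of library 1 (median 25720 UMIs) had C3, Saa3 and Slpi among their leading genes. The main fibroblast cluster of the joint table (median 2864.5 UMIs) had Lum, Vtn and Gdf10, and Saa3 and C3 were among the leaders of an 11-cell cluster. The part of this in the differences between libraries was not tested. The 2 clusters were not tested against each other, since pericytes of library 1 numbered 12.

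**Figure D5:**
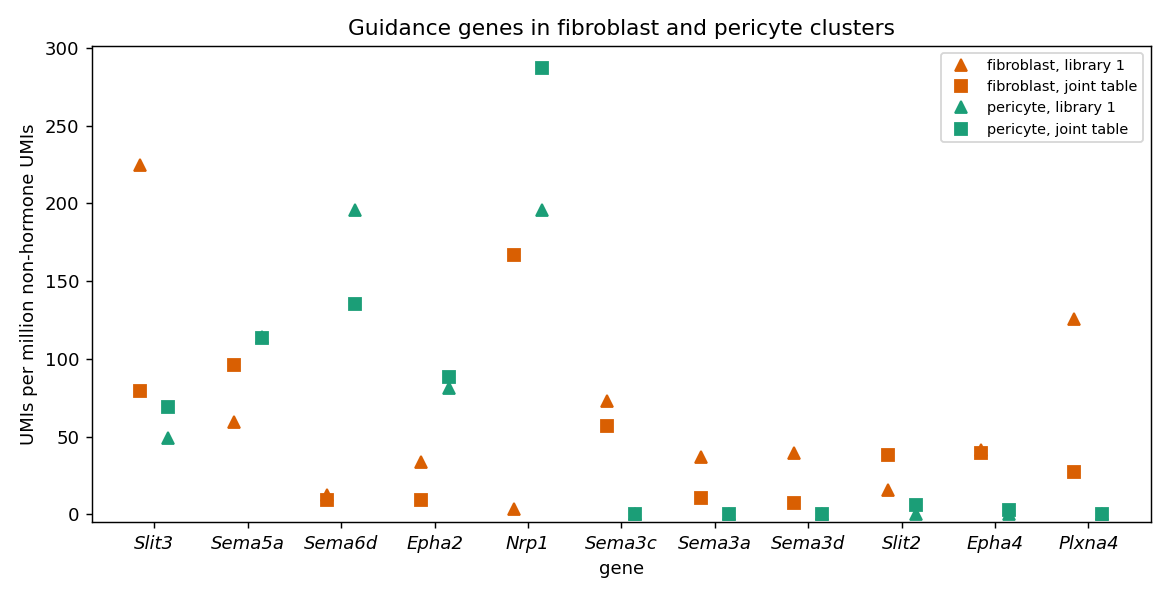
Levels of 11 guidance genes in fibroblasts and pericytes, in CPM of non-hormone UMIs, with a triangle for library 1 and a square for the joint table. Sema3a, Sema3c, Sema3d and Plxna4 had 0 UMIs in pericytes, where the upper limits are 60.1 and 11.6, whereas Sema6d is at 196 and 136 in pericytes and at 12.3 and 9.18 in fibroblasts.

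A list of 54 co-receptors, adaptors and effectors of guidance signalling that hold none of these families was counted in the same fits, 49 of them tested. In delta against beta cells 7 were higher and 0 lower, in alpha against beta cells 4 and 0, and in delta against alpha cells 5 and 1, where the shares of all genes were 5.49% and 4.55%, 5.03% and 5.07%, and 3.42% and 2.7%. In endothelial, macrophage and stromal against endocrine cells the counts were 22 higher and 9 lower, 18 and 9, and 25 and 5, and in endocrine against non-endocrine cells 8 and 27, where the shares of all genes were 22.7% and 27.1%, 25.9% and 24.3%, 21% and 22.9%, and 30.2% and 31.8%. Unc5c, a netrin receptor, passed in all 7 comparisons: it had 174 and 139 CPM in delta cells and 23.6 and 18.4 in alpha cells, against 5.35 and 5.45 in beta cells, with a log2 difference of 3.92 in delta against beta cells (SE 0.36, adjusted p = 0.000107). Dscam, an adhesion molecule that also binds netrin, had 41.8 and 53.7 CPM in delta cells, against 0 and 0.215 in beta cells (3.33, SE 0.24). Tiam1, a Rac activator, had 25.5 and 22.3 in delta cells against 0.864 and 1.70 in beta cells (2.18, SE 0.35), and Pak1, a kinase driven by Rac, had 20.9 and 22.9 against 3.97 and 8.25 (1.27, SE 0.29). Srgap2, a Robo-binding protein, was higher in alpha than in beta cells (1.64, SE 0.24) and lower in delta than in alpha cells (-1.12, SE 0.24). Pak1 in delta against beta cells lost its call with all UMIs (adjusted p = 0.112) and a pseudocount of 1 (0.0711), and Srgap2 in delta against alpha cells with equal weight per cell (0.051). Unc5c lost its call in alpha against beta cells under 4 settings, all UMIs, a pseudocount of 1, a mitochondrial limit of 10% and equal weight per cell (0.0538 to 0.198), and in delta against alpha cells with a pseudocount of 1 (0.0744).

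Outside the endocrine cells, Flrt2, a ligand of Unc5 receptors, had 193 and 84.5 CPM in stromal cells (4.75 against endocrine cells, SE 0.38), and Dpysl3, a cytoskeletal relay of semaphorin signals, had 90.3 and 88.6 (4.32, SE 0.28). Itga1, an integrin subunit, differed by 6.59 in endothelial and 4.83 in stromal cells, and Fes, a kinase tied to plexin signalling, by 4.22 in macrophages and 3.24 in endothelial cells. Flt1, a receptor of vascular endothelial growth factor, differed by 9.73 in endothelial cells. It was 1 of the markers that named that class, so its difference is no independent result, as is the case for Kdr and Tyrobp.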

How the data were processed

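Single-cell RNA of islet cells was measured in 3 samples. For replicate 1 the authors deposited raw UMI counts per gene and cell, for which the submitters' processing notes name build mm10, FastQC 0.11.8, Seurat, cutadapt 2.5 and Cell Ranger 3.2.0. Replicates 2 and 3 were deposited in a joint table of natural log values, which the authors made by scaling each cell to 10000 and adding 1, as the values themselves show. The submitters' notes name mm10, FastQC 0.11.8, Seurat 4.0.0, cutadapt 2.5 and Cell Ranger 5.0.0 for it. The use of strand in counting is not given in the sources used here. Whole UMIs were recovered for 100% of 35558086 nonzero values within a tolerance of 0.001. Of 16050 columns, 3008 repeated others exactly and were dropped. Columns of other series numbered 0.

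Kept cells had 500 genes, 1000 UMIs and a mitochondrial share of 20% or less. The highest Scrublet scores (scanpy 1.11.5, Python 3.11.15) were removed at 0.8% per 1000 cells in each block, 6 cells in library 1 and 377 in the joint table, leaving 853 and 11072. Each table was clustered with the guidance genes and the pathway list kept out of the variable genes. A cluster took the non-endocrine class whose fixed markers had the highest mean log2 fold, if above 2.5. This rule was set after the clusters were seen. Endocrine cells were assigned by 1 hormone above 5 times the non-endocrine median plus 5 UMIs. As planned, that left too few delta cells in library 1, because most also passed the limit for Ppy, so after seeing the class sizes Ppy was allowed in delta cells with more Sst than Ppy UMIs. Cells with several hormones were set aside.

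Summed UMIs per class and library were scaled to 1000000 non-hormone UMIs (without Ins1, Ins2, Gcg, Sst, Ppy, Pyy and Iapp). The log2 of this level plus 5 was tested in R 4.3.3 with limma 3.58.1, for 6 classes and 2 libraries, with the library as a block, centred columns, a variance trend and Benjamini-Hochberg adjustment over 13069 genes. A log2 difference on this scale understates the change of low genes. The joint table holds cells of several animals that no label tells apart, so p-values measure the spread over these 2 libraries and the classes. Poisson and Clopper-Pearson intervals (95%) and limits from 3 counts cover counting error only.

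Guidance genes are named with values where past the threshold in the same direction in both libraries, up to 12 per direction and comparison by size, and as the leading gene of a family in a class. Pathway genes are named where past it in the most comparisons, up to 10. The genes, lists, classes and tests were chosen with earlier results of these data known. edgeR 4.0.16, DESeq2 1.42.0 and other settings were run as alternatives. All 67 symbols were found in GENCODE vM21 (mm10).
Many of these genes overlap other annotated genes, among them Efnb2, Nrp2, Ntn3, Ntn4, Robo1, Robo2, Sema3e and Slit3, so reads in an overlap could have been assigned otherwise. Ntn3 overlaps Tbc1d24 on the same strand, and the part of this in the Ntn3 counts was not tested.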

Additional observations from a re-analysis of the deposited data

How the results depend on the processing

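Of 3017 tested values of 216 named differences under other settings, 2740 kept direction and call, 248 lost the call and 29 changed sign. Counts of guidance genes past the threshold moved from 43 in endocrine against non-endocrine cells to 25 with edgeR and TMM factors and 26 with DESeq2 size factors, where all genes past it numbered 3944 higher and 4158 lower, then 3791 and 3024, and 3947 and 3013. In alpha against beta cells they moved from 7 to 3 with all UMIs, to 12 with edgeR under either factors and to 13 with DESeq2, where all genes numbered 657 and 662, then 450 and 377, 862 and 975 or 971 and 970, and 1141 and 1081. In delta against beta cells they moved from 10 to 17 with edgeR under either factors and 19 with DESeq2, where all genes numbered 717 and 594, then 961 and 845 or 1126 and 768, and 1350 and 856. Without the replicate block, which pairs the classes of 1 library, the counts were 44, 6, 9, 7, 38, 26 and 33, against 43, 7, 10, 7, 41, 26 and 33 with it. The rule of exactly 1 hormone left fewer than 15 delta cells in library 1, so only alpha against beta cells was fitted.

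In endocrine against non-endocrine cells the sign turned to 0.026 for Ephb3 with all UMIs and, with edgeR under TMM and DESeq2 factors, to 1.14 and 1.2 for Robo3, 1.84 and 1.84 for Slit2, 0.57 and 0.59 for Sema6a, and 0.13 and 0.16 for Efna1. In macrophages against endocrine cells it turned with all UMIs to -0.071 for Sema7a, and with all UMIs, without centring and with edgeR under both factors to -0.18, -0.00115, -0.23 and -0.25 for Efna4, to -0.18, -0.00343, -0.57 and -0.58 for Ephb4, to -0.18, -0.019, -0.79 and -0.80 for Robo4, and to -0.18, -0.021, -0.92 and -0.91 for Sema3b. Dscam in stromal against endocrine cells turned to 0.77 and 0.78 with edgeR and 0.69 with DESeq2. The causes were not tested.

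In the joint table, CPM of all UMIs in place of non-hormone UMIs were 82.8 for Efnb3 in delta cells, 143 and 59.5 for Robo2 in alpha and beta cells, and 1601 and 177 for Nrp1 in endothelial and stromal cells. Shares of cells with a UMI, as sequenced, thinned to 2000 UMIs and to 1000 non-hormone UMIs, were 34.8%, 14.5% and 11.3% for Efnb3 in delta cells, 55.0%, 24.8% and 19.4% for Robo2 in alpha cells, 65.7%, 11.6% and 17.0% for Robo2 in beta cells, 92.9%, 89.6% and 77.2% for Nrp1 in endothelial cells, 26%, 16.4% and 9.68% for Sema4d in macrophages, and 40%, 32.2% and 24.2% for Nrp1 in stromal cells.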

Other observations

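Pancreatic polypeptide (PP) cells (13 in library 1 and 168 in the joint table) were too few in library 1 to be tested. Robo2 stood at 172 and 134 CPM in them, Efnb3 at 33.1 and 57.6, Plxna2 at 39.7 and 53.1 and Ntn4 at 19.9 and 33.9. In 82 Schwann-like cells of the joint table, the glia of islet nerves, the secreted Sema3b stood at 229.8 CPM, Robo2 and Sema6d at 120.1 each, Sema3c at 99.5, the receptor Epha5 at 68.6 and Sema3e at 44.6. Insulin per non-hormone UMI was 11.8% of the beta value in those cells, and its part in these levels was not tested. In 75 B-cell-like cells Sema4d stood at 86.3 CPM, Plxnc1 at 32.7 and Sema7a at 17.8. In 19 T or NK-like cells Sema4d and Sema4a stood at 58.6 each, from 3 UMIs.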
